A study of Arabidopsis thaliana with 48 samples.

Results

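The response of flc shoot apices to the transfer from short days (SDs) to long days (LDs) was taken from 6 of the 48 arrays of the series, the 3 labelled flc/SVP LD Apex and the 3 labelled flc/SVP SD Apex. The arrays were chosen by their titles alone. The series profiled leaves and apices from 4 genotypes of Arabidopsis thaliana under both day lengths: wild type, flc-3, svp-41 and the double mutant of both (flc svp below). It asked how the floral repressors FLC and SVP shape gene expression together and apart. Both groups were Columbia plants homozygous for the loss-of-function allele flc-3 with functional SVP, and according to the methods they also carried a functional FRIGIDA (FRI) allele, as did every other line. The LD group was grown for 2 weeks under SDs and then spent 2 days under LDs of 16 h of light. The SD group stayed under SDs of 8 h of light. A label of the SD samples mentions further short days. Whether both groups were of equal age at harvest is therefore unclear, and age and day length cannot be told apart here. Apices were collected 8 h after dawn in both groups, a time that is the end of the light period in SDs and the middle of it in LDs. The labels give 3 replicates per group and the methods call them biological, while the number of plants behind each is not given in the sources used here. RNA was hybridised to AGRONOMICS1 tiling arrays, which carry probes along the whole genome, and levels are log2 values from the robust multi-array average (RMA), so that a difference of 1 is a 2-fold change.

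FLC is a MADS-box transcription factor that FRI keeps abundant in plants that have not been vernalised, and it represses the floral integrators FT in leaves and SOC1 in the shoot meristem. In Arabidopsis, LDs act through CO in the leaf, which raises FT, and the FT protein moves to the apex, where SOC1 and FUL are among the first genes to respond. In flc plants that carry FRI this repression is lifted on the FLC side while SVP, the other MADS-box repressor, remains. The apex arrays therefore sample the tissue that receives the signal, while the day length itself may also change light, sugar and clock-dependent transcripts there.

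The values of the 6 arrays were even. Arrays of a group correlated across genes at r of 0.992 to 0.993 in LD apices and 0.990 to 0.992 in SD apices, and the medians of the 6 arrays lay between 4.34 and 4.38. FLC itself measured between 5.95 and 7.05 in the 12 apex arrays with the mutant allele, against 9.12 to 9.80 in the 12 with the functional allele, and these ranges did not overlap. SVP, which is intact in these plants, stood at 7.88, 8.01 and 7.97 in flc LD apices and 7.75, 7.79 and 7.89 in flc SD apices. Of 12 markers of the shoot meristem, 5 (STM, KNAT1, KNAT2, CUC3 and ANT) were higher in all 6 arrays than in every one of the 24 leaf arrays. The others (WUS, CLV3, CLV1, CUC1, CUC2, UFO and AIL6) overlapped the range of the leaf arrays. Of these, WUS and CLV3 mark a few cells of the meristem centre. CLV1 measured 4.46 to 4.77 in the 6 arrays and 4.52 to 4.92 in leaves. Of 4 root markers, PYK10 was higher in all 6 arrays than in every leaf array, and the others overlapped. Of 7 genes listed as markers of expanded leaves, 5 were lower in all 6 arrays than in every leaf array. GL1 and SULTR2;1 were higher, so neither marked expanded leaves in these data. On bulk tissue, fewer cells of a type and less RNA per cell cannot be told apart.

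In flc apices 75 of the 31004 genes measured (0.242%) differed between LDs and SDs past both limits set for a call here and below, a difference over 2-fold and an adjusted p under 0.01. Of these, 47 genes (0.152%) were higher and 28 (0.0903%) were lower in LDs. Without the fold threshold 373 genes passed (1.2%), 239 higher and 134 lower, and 4537 genes had an unadjusted p under 0.05. The median change of all genes was -0.02. The 3 LD arrays lay wholly beyond the 3 SD arrays for 74 of the 75 called genes, against 19.2% of all genes, and the exception, AT1G74460, was higher in LDs. The median change was 1.47 for the higher genes and -1.27 for the lower genes. The calls rested on the spread that all 48 arrays share: with the 6 arrays alone limma called no gene, although all 75 kept an unadjusted p under 0.05, their adjusted p ran from 0.0200 to 0.265, and 3918 of all genes had an unadjusted p under 0.05. The calls were made with the values of these 6 arrays, so neither the separated groups nor these p-values are separate support.

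**Figure D1:**
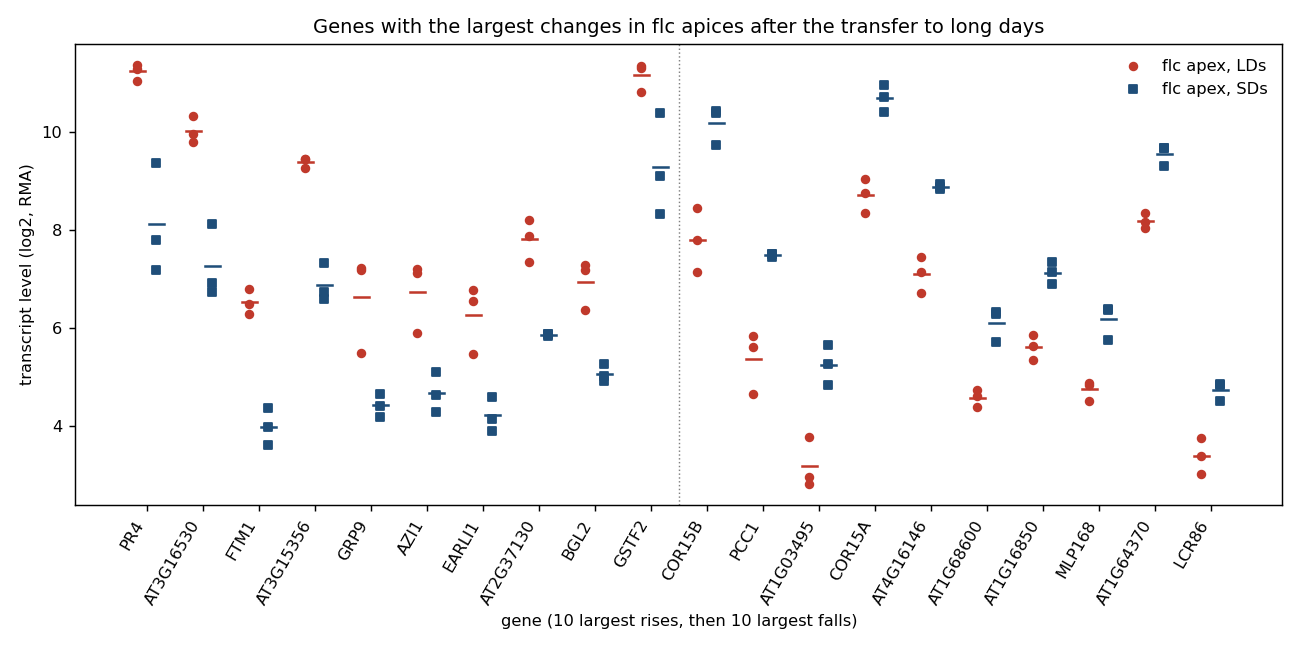
Transcript levels (log2, RMA; vertical axis) of the 10 genes with the largest rise and the 10 with the largest fall in flc apices, with each array as a point (LDs as circles on the left, SDs as squares on the right) and the mean of 3 arrays as a bar. No LD point of these genes lies within the range of its SD points, which was a condition of their choice, and the SD points of PR4 and GSTF2 spread the most.

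The largest rise was that of PR4, which encodes a chitin-binding pathogenesis-related protein. PR4 measured 11.38, 11.30 and 11.06 in LD apices, against 7.80, 9.38 and 7.17 in SD apices. The LD arrays lay close together and above every SD array, and SD replicate 2 stood apart from the other SD arrays. The change was 3.13 ± 0.38 (standard error of the fit, n = 3 arrays per group here and below), or 8.75-fold, with a limma adjusted p of 4.14e-06. AT3G16530 followed, with 10.33, 9.96 and 9.79 in LD apices and 6.93, 8.12 and 6.74 in SD apices, a change of 2.77 ± 0.42 (adjusted p = 0.000107). SD replicate 2 was again the highest of the SD arrays, and the groups did not overlap. AT3G15356 measured 9.45, 9.45 and 9.26 in LD apices and 6.59, 7.33 and 6.72 in SD apices, and was higher by 2.50 ± 0.36 (adjusted p = 3.41e-05). In each of these 3 genes the level in LDs was close to uniform and the spread lay in SDs. For PR4, replicate 2 was also the highest SD array in wild-type apices (9.31).

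FTM1 had the smallest adjusted p of any gene that rose. It encodes a desaturase of acyl carrier protein-bound stearic acid and is known as a gene of the shoot meristem that is switched on early in the floral transition. FTM1 stood at 6.49, 6.79 and 6.28 in LD apices, against 3.98, 4.35 and 3.61 in SD apices. The groups lay far apart, with all LD arrays above all SD arrays. The change was 2.54 ± 0.22, or 5.82-fold (adjusted p = 3.36e-09), and it stayed between 2.35 and 2.72 when any of the 6 arrays was left out, with a highest adjusted p of 3.80e-07.

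GRP9, AZI1 and EARLI1 rose with a common pattern over the arrays. GRP9 encodes a glycine-rich protein, and AZI1 and EARLI1 are related lipid transfer-like proteins encoded at neighbouring loci, AZI1 being known for the priming of systemic defence. GRP9 measured 7.18, 7.23 and 5.48 in LD apices and 4.19, 4.41 and 4.66 in SD apices (change 2.21 ± 0.37, adjusted p = 0.000400). AZI1 measured 7.12, 7.20 and 5.89 in LD apices and 4.27, 5.10 and 4.63 in SD apices (2.07 ± 0.39, adjusted p = 0.00141). EARLI1 measured 6.77, 6.55 and 5.47 in LD apices and 4.59, 4.14 and 3.90 in SD apices (2.05 ± 0.36, adjusted p = 0.000623). LD replicate 3 was the lowest LD array for all 3 genes, and it remained above every SD array. The call of AZI1 was lost without LD replicate 1 (1.88, adjusted p = 0.0148), LD replicate 2 (1.88, 0.0183) or SD replicate 1 (1.86, 0.0176), while those of GRP9 and EARLI1 were kept whichever array was left out. Whether AZI1 and EARLI1 share probes was not checked. In wild-type LD apices replicate 3 was also the lowest array, at 6.56 for GRP9, 6.46 for AZI1 and 5.84 for EARLI1. The changes in wild-type apices were 2.41, 2.55 and 2.45.

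The other genes among the 10 largest rises were AT2G37130, BGL2 and GSTF2. AT2G37130 measured 8.20, 7.88 and 7.35 in LD apices and 5.88, 5.87 and 5.83 in SD apices, so that here the spread lay in LDs (1.95 ± 0.24, adjusted p = 4.97e-06). BGL2, the pathogenesis-related glucanase that is widely used as a marker of salicylic acid signalling, measured 7.18, 6.37 and 7.29 in LD apices and 4.91, 5.26 and 5.01 in SD apices (1.89 ± 0.32, adjusted p = 0.000434). GSTF2, a glutathione S-transferase, measured 11.36, 11.31 and 10.82 in LD apices and 8.33, 10.40 and 9.11 in SD apices (1.89 ± 0.33, adjusted p = 0.000562). For GSTF2, SD replicate 2 came close to the lowest LD array, and its call was lost without SD replicate 1 (1.41, adjusted p = 0.0161). Over the 47 called higher genes, SD replicate 2 was the highest SD array in 29 and LD replicate 3 was the lowest LD array in 27.

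Genes of cold-regulated proteins were among the largest falls, although 5 of the 12 genes of the cold list were above 0. COR15B measured 8.46, 7.79 and 7.14 in LD apices and 10.39, 9.75 and 10.45 in SD apices, and COR15A 9.05, 8.76 and 8.34 in LD apices and 10.72, 10.42 and 10.96 in SD apices. They encode small proteins of the chloroplast stroma that are known to protect membranes in the cold. COR15B fell by 2.40 ± 0.54 (adjusted p = 0.00765) and COR15A fell by 1.98 ± 0.40 (adjusted p = 0.00280). KIN2, another cold- and abscisic acid-inducible gene, measured 7.84, 8.03 and 7.30 in LD apices and 8.94, 8.83 and 9.09 in SD apices and fell by 1.23 ± 0.22 (adjusted p = 0.000669). The groups of all 3 genes were apart, but the call of COR15B was lost without any 1 of the 6 arrays (-2.64 to -2.16, adjusted p = 0.0128 to 0.0556). That of COR15A was lost without LD replicate 2 (-2.01, adjusted p = 0.0151), LD replicate 3 (-1.85, 0.0219), SD replicate 1 (-2.04, 0.0128) or SD replicate 3 (-1.79, 0.0277), and that of KIN2 without LD replicate 3 (-1.04, 0.0131).

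PCC1, named for its response to pathogens and the clock, measured 5.83, 5.61 and 4.64 in LD apices and 7.52, 7.44 and 7.51 in SD apices. It fell by 2.13 ± 0.42 (adjusted p = 0.00204), with nearly identical SD arrays and a low LD replicate 3. Its call was lost without LD replicate 3 (-1.75, adjusted p = 0.0319) and, at an adjusted p of 0.0101 to 0.0119, without any of the 3 SD arrays. AT1G03495 had 2.80, 3.77 and 2.95 in LD apices and 5.26, 5.66 and 4.82 in SD apices, so that its LD levels lay near the low end of the array's range (change -2.07 ± 0.30, adjusted p = 4.63e-05). AT1G64370 had the smallest adjusted p of all genes that fell. It measured 8.34, 8.03 and 8.16 in LD apices and 9.68, 9.30 and 9.69 in SD apices, a fall of 1.38 on the log2 scale with a standard error of 0.12 (adjusted p = 3.36e-09). The groups of AT1G64370 were tight and did not overlap.

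The remaining large falls were those of AT4G16146, AT1G68600, AT1G16850, MLP168 and LCR86, of -1.79, -1.54, -1.52, -1.43 and -1.35. AT1G68600 measured 4.73, 4.60 and 4.38 in LD apices and 5.71, 6.29 and 6.33 in SD apices (adjusted p = 2.16e-06). MLP168 measured 4.83, 4.88 and 4.51 in LD apices and 5.75, 6.39 and 6.37 in SD apices (adjusted p = 0.000263). In both genes SD replicate 1 was the lowest SD array and still above the LD arrays. AT4G16146 was lower by 1.79 ± 0.38 (adjusted p = 0.00441), but its call was lost whichever of the 6 arrays was left out (adjusted p = 0.0108 to 0.0334). The calls of AT1G16850 and LCR86, a cysteine-rich defensin-like peptide, were each lost in 5 of the 6 cases, all but that without SD replicate 2 for AT1G16850 (adjusted p = 0.0121 to 0.0368 in the others) and all but that without LD replicate 1 for LCR86 (adjusted p = 0.0102 to 0.0423 in the others).

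Further called genes, named here after their values were seen, encode proteins of the cell wall, of carbon metabolism and of hormone responses. HCHIB, a basic chitinase, measured 7.09, 6.93 and 6.69 in LD apices and 5.27, 5.67 and 5.16 in SD apices (1.54 ± 0.16, adjusted p = 1.73e-07). GDH2, a subunit of the mitochondrial glutamate dehydrogenase, measured 8.43, 8.86 and 8.89 in LD apices and 7.10, 7.58 and 7.24 in SD apices (1.42 ± 0.19, adjusted p = 1.85e-05). Both rose with no overlap of the groups. CP12-2, a small regulator of the Calvin cycle, measured 7.54, 7.18 and 7.29 in LD apices and 8.44, 8.75 and 8.78 in SD apices (-1.32 ± 0.16, adjusted p = 4.14e-06). FUM2, the cytosolic fumarase, measured 4.53, 4.61 and 4.35 in LD apices and 5.40, 5.65 and 5.81 in SD apices (-1.12 ± 0.17, adjusted p = 9.18e-05). RbcX1, a chaperone of Rubisco assembly, was lower by 1.11 ± 0.21 (adjusted p = 0.00118), a call that was lost without LD replicate 3 (-0.98, adjusted p = 0.0165) or SD replicate 3 (-0.96, 0.0196). Genes listed as markers of expanded leaves lay mostly in the same direction as CP12-2 and RbcX1. Of 23 genes of light harvesting and photosynthesis, in contrast, 17 were above 0, with a median of 0.13. Among the listed leaf markers, GL1 and SULTR2;1 were higher in all 6 apex arrays than in every leaf array, so the list is not a plain measure of expanded leaf. Of the 7 markers 6 were below 0, with a median of -0.33, and CA1, the chloroplast carbonic anhydrase, measured 8.53, 8.64 and 8.98 in LD apices and 9.43, 9.33 and 9.83 in SD apices (-0.82, adjusted p = 0.00908, under 2-fold). The mean level of the 7 markers was 8.05 to 8.22 in LD apices and 8.31 to 8.55 in SD apices, the lowest of them, FAMA, measured 4.68 to 5.08 in LD apices and 5.0 to 5.10 in SD apices, and the part of leaf tissue in the falls was not tested.

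Of the 75 calls, 25 were kept whichever 1 of the 6 arrays was left out, and the other 50 were lost in at least 1 case. The 25 comprised 8 of the 10 largest rises (PR4, AT3G16530, FTM1, AT3G15356, GRP9, EARLI1, AT2G37130 and BGL2), 4 of the 10 largest falls (AT1G03495, AT1G68600, MLP168 and AT1G64370) and GASA1, HCHIB, GDH2, CP12-2 and FUM2 among the other genes described.

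None of the 26 genes of the photoperiod pathway and the floral integrators was called, and their median change was -0.07, against -0.02 for all genes. SOC1, one of the genes known to respond first, had the highest value of the list. It measured 5.39, 5.37 and 5.27 in LD apices and 5.0, 4.84 and 4.89 in SD apices. Its groups did not overlap, but the change of 0.44 ± 0.13 (adjusted p = 0.0534) was neither 2-fold nor past the threshold. FUL measured 3.88, 4.39 and 3.98 in LD apices and 3.86, 3.68 and 3.63 in SD apices (0.36 ± 0.15, adjusted p = 0.213). BLH9, a homeodomain partner of the KNOX proteins of the meristem, was the only gene of the list with an adjusted p under 0.01, at 0.00930 for a change of 0.33. SPL15 measured 4.36, 4.33 and 4.32 in LD apices and 4.56, 5.09 and 4.84 in SD apices, with a change of -0.49 ± 0.13 (adjusted p = 0.0202).

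Further flowering genes were not called either. FT, whose messenger is made in leaves, measured between 2.56 and 2.80 in LD apices and between 2.63 and 2.68 in SD apices, close to the lowest values of the arrays, and the meristem identity gene AP1 measured 2.52 to 2.63 in LD apices and 2.75 to 2.78 in SD apices. The differences between LDs and SDs were 0.02 for FT, -0.19 for AP1, -0.14 for LFY, -0.07 for SEP3, -0.03 for CO, 0.04 for SPL3, -0.13 for SPL4 and -0.06 for SPL5, with adjusted p from 0.605 to 0.977. The signs of FT, CO, SEP3, SPL3, SPL4 and SPL5 turned when single arrays were left out. Of 19 floral repressors none was called (median 0.05), and FLC, at 6.47, 6.87 and 6.66 in LD apices and 7.05, 6.75 and 6.73 in SD apices, stood at -0.18 ± 0.14 (adjusted p = 0.630). None of the 12 meristem markers (median -0.10) and none of the 5 floral organ markers (median -0.06) was called. The reference genes PP2A (AT1G13320) and UBC21, the house-keeping genes of the study, had differences of 0.33 ± 0.08 (adjusted p = 0.0150) and 0.08 ± 0.08 (adjusted p = 0.727), and PP2A was higher in every LD array (7.61 to 7.69) than in every SD array (7.28 to 7.40).

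No clock gene of the 32 listed was called, although the groups of some lay apart. ELF4, a component of the evening complex, measured 8.12, 6.69 and 6.06 in LD apices and 9.10, 9.34 and 9.23 in SD apices, a change of -2.27 ± 0.64 with an adjusted p of 0.0410. The spread lay in LDs, with replicate 1 nearest the SD level, and the same replicate number was the highest in wild-type LD apices (8.14, 6.11 and 5.70) and in flc svp LD apices (7.77, 6.15 and 5.64). BOA measured 4.96, 4.50 and 4.39 in LD apices and 5.37, 5.52 and 5.68 in SD apices (-0.91, adjusted p = 0.0254). The morning genes CCA1 and LHY stood at 0.27 and 0.22, and the afternoon and evening genes GI, FKF1 and TOC1 at -0.25, -0.54 and -0.50, with adjusted p from 0.283 to 0.627. The median of the clock list was 0.05.

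**Figure D2:**
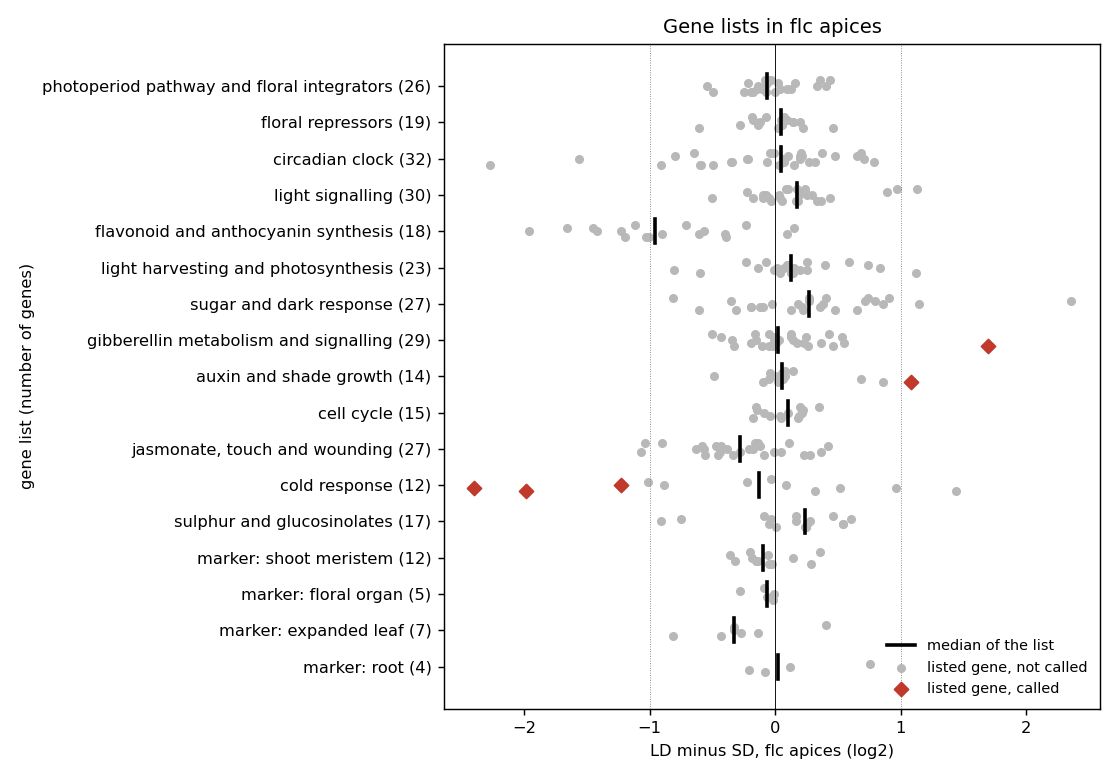
Change in flc apices (LD minus SD, log2; horizontal axis) of every gene of 13 lists and 4 marker lists, with the number of genes in brackets, called genes as red diamonds, other genes as grey points, and list medians as black bars. The flavonoid list lies furthest from 0 with a median of -0.96 and no called gene, and the called genes belong to the gibberellin, auxin and cold lists.

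Genes of flavonoid and anthocyanin synthesis lay mostly below 0 without a call in flc apices. Of 18 genes 16 were below 0, against 54% of all genes, the median was -0.96, and in 12 (66.7%) the groups did not overlap, against 19.2% of all genes. UGT79B1, an anthocyanin glycosyltransferase, measured 5.99, 6.97 and 5.73 in LD apices and 7.98, 8.42 and 8.17 in SD apices (-1.96 ± 0.48, adjusted p = 0.0144). CHS, the chalcone synthase that opens the pathway, measured 8.78, 9.90 and 8.97 in LD apices and 10.23, 10.72 and 10.38 in SD apices (-1.23 ± 0.45, adjusted p = 0.142). LD replicate 2 was the highest LD array for both genes. DFR, the dihydroflavonol reductase, had 7.57, 9.41 and 7.79 in LD apices and 9.39, 10.31 and 10.04 in SD apices, and here LD replicate 2 lay within the SD range (-1.66, adjusted p = 0.227). In all, 6 of the 18 had an adjusted p under 0.05, against 3.12% of all genes. More than 2-fold differences were seen in 9 of the 18, against 156 of all 31004 genes. In wild-type apices 17 of the 18 were below 0, the median was -1.11 and 3 were called, against 0.297% of all genes there. In flc svp apices 13 were below 0, the median was -0.31 and none was called.

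The other environmental lists held few genes past the threshold. Of the 27 sugar- and dark-responsive genes none was called, with a median of 0.27, and 5 had a limma adjusted p under 0.05, against 3.12% of all genes. The groups did not overlap in 59.3% of these genes, 58.3% of the cold list and 46.9% of the clock list, against 19.2% of all genes. SEN1 (AT4G35770), a gene induced in the dark and in senescence, measured 7.66, 8.72 and 8.68 in LD apices and 5.78, 5.88 and 6.34 in SD apices, a change of 2.36 ± 0.56 (adjusted p = 0.0129) that lay just outside the threshold with groups well apart. bZIP11, a transcription factor of the response to sucrose, stood at -0.60 (adjusted p = 0.00542, under 2-fold). Of 30 light signalling genes and 23 genes of light harvesting and photosynthesis none was called, with medians of 0.18 and 0.13. LHCB1.4 stood at 0.84 (adjusted p = 0.000428, under 2-fold). The cold list had 3 of 12 called, all lower (COR15A, COR15B and KIN2), against 0.0903% of all genes called lower. Its median was -0.13, 5 of the 12 were above 0, and GOLS1 of the same list stood at 1.44 (adjusted p = 0.0885).

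Of 29 genes of gibberellin metabolism and signalling 1 was called, against 0.242% of all genes. This gene, GASA1, encodes a small cysteine-rich peptide of the gibberellin-regulated family. GASA1 measured 9.19, 9.29 and 9.15 in LD apices and 7.37, 7.71 and 7.46 in SD apices. Both groups were tight and far apart, with a change of 1.70 ± 0.18, or 3.24-fold (adjusted p = 5.15e-07), that kept its call whichever array was left out. Of 14 genes of auxin and shade growth 1 was called, PRE5, a non-DNA-binding helix-loop-helix protein of the family that promotes cell elongation. PRE5 measured 5.57, 5.95 and 6.24 in LD apices and 4.84, 4.74 and 4.95 in SD apices (1.08 ± 0.20, adjusted p = 0.00145), and its call was lost without LD replicate 2 (1.05, adjusted p = 0.0129) or LD replicate 3 (0.94, 0.0198). The call of PRE5 was also lost when only the 24 apex arrays were fitted. GH3.3, an enzyme that conjugates auxin to amino acids, stood at 0.86 (adjusted p = 0.00333, under 2-fold). None of 15 cell cycle genes, 17 genes of sulphur and glucosinolate metabolism and 27 genes of the jasmonate, touch and wounding list was called, with medians of 0.10, 0.24 and -0.28.

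The response of wild-type apices, which carry functional FLC and SVP, was taken from 6 other arrays of the same fit. Wild-type apices had 92 called genes (0.297%), 53 higher (0.171%) and 39 lower (0.126%). Without the fold threshold 328 genes passed there (1.06%). Of the 75 genes called in flc apices 41 were also called in wild-type apices (54.7% of the flc genes and 44.6% of the wild-type genes), all in the same direction. All 75 had the same sign in wild-type apices, against 61.2% of all genes. The arrays of both genotypes were not fully independent, since same-numbered arrays deviated together weakly, as given below. The 47 higher genes had a median change of 1.47 in flc apices and 1.23 in wild-type apices, and the 28 lower genes -1.27 in flc apices and -1.26 in wild-type apices. Seen from the 92 genes called in wild-type apices, the higher genes had a median of 1.1 in flc apices and 1.43 in wild-type apices and the lower genes -1.11 in flc apices and -1.37 in wild-type apices. Genes called in either genotype thus had the larger median in the genotype in which they were called.

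No gene was called for a difference between the flc and wild-type responses (0%). In limma, 1745 of the 31004 genes had an unadjusted p under 0.05 for this difference. A share of 0.05 of the genes would pass that limit with no true difference. The smallest adjusted p was 0.0308, that of LSU1, a gene of the response to low sulphur, which stood at 0.61 in flc apices and -1.24 in wild-type apices. Among the genes already described, PR4 changed by 3.13 in flc apices and 3.08 in wild-type apices, FTM1 by 2.54 in flc apices and 2.19 in wild-type apices, GASA1 by 1.70 in flc apices and 1.53 in wild-type apices, and COR15B by -2.40 in flc apices and -2.47 in wild-type apices. Over the 75 genes the median standard error of the difference was 0.34. Differences of over 2-fold in 5 of the 75 genes, up to 1.60 for RTFL14 (adjusted p = 0.661), were not called, and a missed threshold does not show that the responses were alike. Same-numbered arrays of flc and wild-type apices deviated together weakly within a day length (r = 0.014 to 0.073 in LDs and 0.062 to 0.18 in SDs), against -0.136 to 0.037 for arrays of different number. With replicate number as a block within day length, fitted after the data were seen, no gene was called for this difference. Of the 31004 genes, 1916 (random block) or 2133 (fixed block) had an unadjusted p under 0.05 in limma. COR15B lay alike by number in both genotypes in LDs, where it measured 8.46, 7.79 and 7.14 in replicates 1, 2 and 3 of flc apices and 7.84, 7.10 and 6.33 in those of wild-type apices.

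A few of the 75 genes had small values in wild-type apices. For 10 of them the wild-type change was under 0.5 in size, 7 higher and 3 lower in flc apices, and the adjusted p of the difference ran from 0.585 to 0.899. RTFL14, a small peptide of the ROTUNDIFOLIA-like family, measured 8.25, 8.82 and 8.98 in flc LD apices and 6.81, 7.18 and 6.84 in flc SD apices, against 6.84, 7.46 and 8.14 in wild-type LD apices and 7.27, 6.80 and 7.95 in wild-type SD apices. The flc groups were apart and the wild-type groups overlapped, and the difference of the responses was 1.60 ± 0.51 (adjusted p = 0.661). PRE5 stood at 4.63, 4.38 and 4.78 in wild-type LD apices and 4.88, 4.29 and 4.57 in wild-type SD apices, so that its change was 1.08 in flc apices and 0.02 in wild-type apices (difference 1.06 ± 0.29, adjusted p = 0.585, the smallest of the 10). In flc svp apices PRE5 overlapped between day lengths as well, with 6.33, 5.65 and 6.94 in LDs and 5.82, 6.05 and 6.05 in SDs (change 0.33). BGAL4, a beta-galactosidase, stood at 1.31 in flc apices and 0.15 in wild-type apices (difference 1.16 ± 0.33, adjusted p = 0.613). AT1G80440 and AT2G44130, annotated as KISS ME DEADLY 1 and KISS ME DEADLY 3, F-box proteins that target activators of the cytokinin response, stood at 1.46 and 1.07 in flc apices and at 0.35 and 0.17 in wild-type apices. Of the 10 genes 6 were also called in flc leaves, BGAL4, AT1G80440 and AT2G44130 among them. The call of RTFL14 in flc apices was lost without LD replicate 2 (1.68, adjusted p = 0.0245), LD replicate 3 (1.64, 0.0265), SD replicate 1 (1.73, 0.0186) or SD replicate 3 (1.64, 0.0277), that of BGAL4 without LD replicate 2 (1.19, 0.0120), that of AT1G80440 without any of the 6 arrays (0.0123 to 0.0301) and that of AT2G44130 without any but LD replicate 1 (0.0128 to 0.0329).

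**Figure D3:**
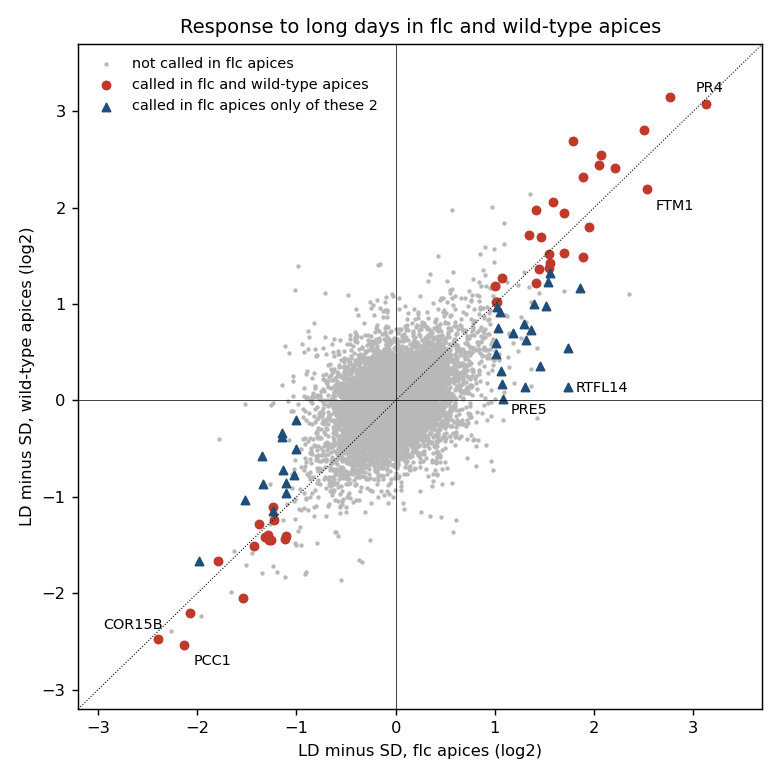
Change after the transfer to LDs (LD minus SD, log2) in flc apices (horizontal axis) and wild-type apices (vertical axis) for 31004 genes, with the 41 genes called in both as red circles, the 34 called in flc apices but not in wild-type apices as blue triangles, and the dotted line marking equal changes. All 75 called genes lie on the same side of 0 in both genotypes, and RTFL14 and PRE5 lie close to 0 in wild-type apices.

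In flc svp apices, where SVP is lost as well, 33 genes were called (0.106%), 20 higher (0.0645%) and 13 lower (0.0419%), and 98 passed without the fold threshold (0.316%). Of the 75 genes called in flc apices 16 were also called in flc svp apices (21.3% of the flc genes and 48.5% of the flc svp genes), all in the same direction, and all 75 had the same sign, against 62% of all genes. Here too same-numbered arrays of both genotypes deviated together weakly (r = 0.031 to 0.113 in LDs and 0.041 to 0.075 in SDs). The 47 higher genes had a median of 1.47 in flc apices and 0.78 in flc svp apices, and the 28 lower genes -1.27 in flc apices and -0.97 in flc svp apices. Of the 33 genes called in flc svp apices, in turn, 26 were larger in size in flc svp apices than in flc apices. No gene was called for a difference between the flc and flc svp responses in limma (0%). The smallest adjusted p was 0.168, and 1406 of the 31004 genes had an unadjusted p under 0.05, where a share of 0.05 would pass with no true difference.

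GRP9, AZI1 and EARLI1 had the widest gap between the flc and flc svp responses among the 10 largest rises. In flc svp apices EARLI1 measured 4.15, 4.38 and 4.16 in LDs and 3.91, 4.15 and 4.19 in SDs, GRP9 4.43, 4.97 and 4.03 in LDs and 4.91, 4.22 and 4.1 in SDs, and AZI1 4.72, 4.73 and 4.21 in LDs and 4.41, 4.75 and 4.50 in SDs. The LD and SD arrays of flc svp apices overlapped for all 3 genes. The differences of the responses were 1.91 ± 0.51 for EARLI1, 2.15 ± 0.53 for GRP9 and 2.06 ± 0.55 for AZI1, each with an adjusted p of 0.744. FTM1 changed by 2.54 in flc apices and 1.34 ± 0.22 in flc svp apices, where it was called, with 5.24, 4.73 and 5.49 in LDs and 3.86, 3.62 and 3.97 in SDs (difference 1.2 ± 0.32, adjusted p = 0.744). PR4 changed by 3.13 in flc apices and 3.21 in flc svp apices.

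In LDs SOC1 measured 5.27 to 5.39 in flc apices, 4.12 to 4.42 in wild-type apices and 7.05 to 7.15 in flc svp apices, and in SDs 4.84 to 5.0 in flc apices, 4.32 to 4.67 in wild-type apices and 6.17 to 6.27 in flc svp apices. The ranges of these 3 genotypes did not overlap under either day length, but apices of the svp single mutant (FLC/svp), at 4.97 to 5.33 in LDs and 4.69 to 5.08 in SDs, overlapped those of flc. The change was 0.44 in flc apices, -0.19 in wild-type apices and 0.90 in flc svp apices, and the differences of the flc response from these were not called.

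**Figure D4:**
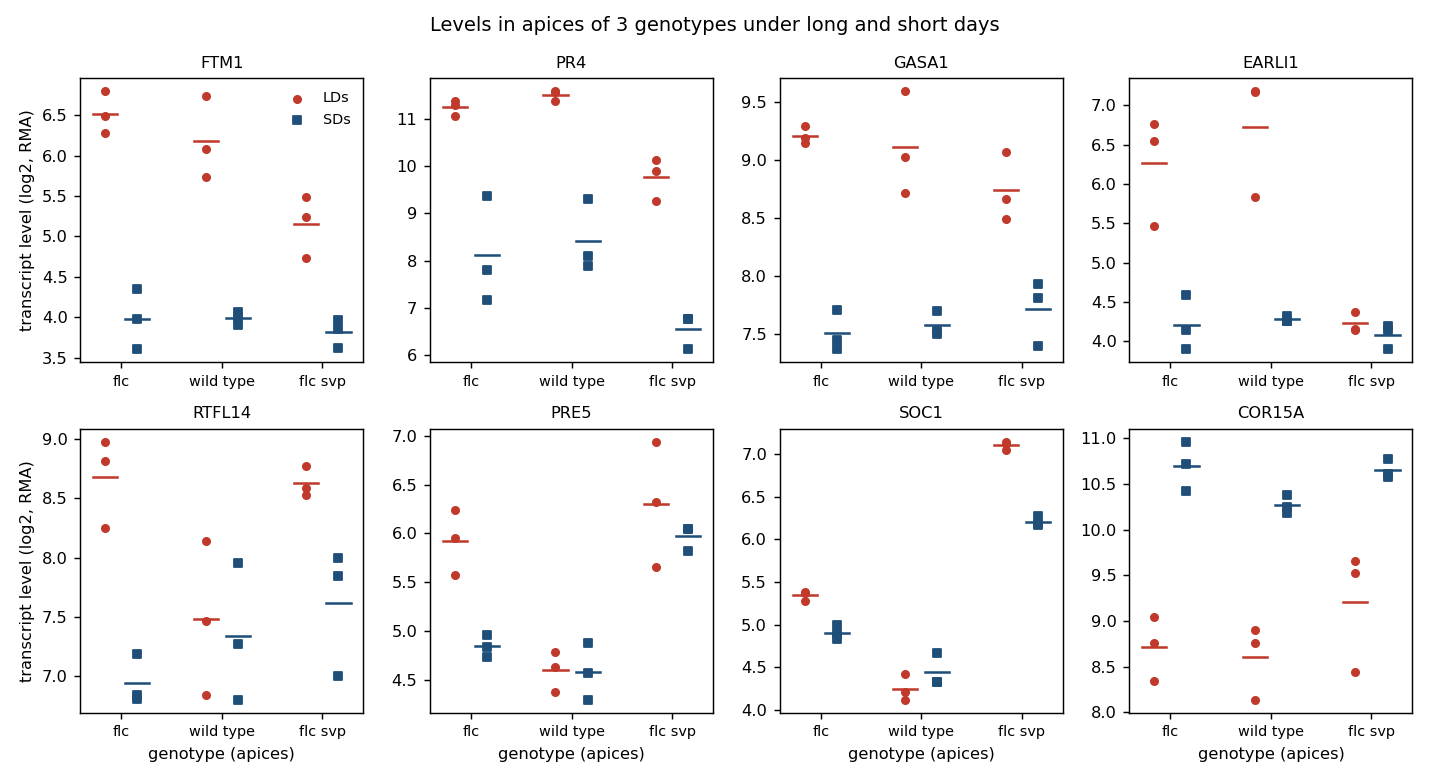
Transcript levels (log2, RMA; vertical axis) of 8 genes in apices of flc, wild-type and flc svp plants, with each array as a point (LDs as red circles on the left, SDs as blue squares on the right) and the mean of 3 arrays as a bar; the vertical axes differ between genes. FTM1, PR4 and GASA1 are higher in LDs in every genotype, EARLI1 and PRE5 overlap between day lengths in flc svp apices, and RTFL14, PRE5 and SOC1 overlap in wild-type apices.

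Across the 3 apex genotypes 12 of the 75 genes were called in all, namely FTM1, PR4, GASA1, GSTF2, MES1 and AT4G11290, which were higher, and AT1G64370, AT1G68600, TIR, PCC1, RbcX1 and FUM2, which were lower. MES1 encodes an esterase of methyl salicylate. Its call in flc apices was lost without LD replicate 2 (0.94, adjusted p = 0.0247) or SD replicate 1 (1.34, adjusted p = 0.0103), and that of AT4G11290 without SD replicate 1 (1.47, adjusted p = 0.0115) or SD replicate 3 (1.22, adjusted p = 0.0250). Only AT4G11290 was also called in flc leaves, with changes of 1.54 in flc apices, 1.37 in wild-type apices, 2.36 in flc svp apices and 1.31 in flc leaves. A further 29 genes were called in flc and wild-type apices, 4 in flc and flc svp apices (JAL23, AT4G36850, AT2G30540 and LCR86) and 30 in flc apices alone, and since no difference between the genotypes was called, a call in 1 genotype only is no evidence that the others differ. The flc call of AT4G36850 was lost without any 1 of the 6 arrays (1.45 to 1.67), and that of LCR86 without any 1 but LD replicate 1 (-1.45 to -1.15). JAL23 lost its call without LD replicate 2 (1.49), SD replicate 1 (1.87) or SD replicate 3 (1.71), and AT2G30540 without LD replicate 3 (-0.83) or SD replicate 1 (-0.92).

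Leaves of flc plants had 260 called genes (0.839%), of which 95 were higher (0.306%) and 165 lower (0.532%), and 1279 passed without the fold threshold (4.13%). Of the 75 apex genes 12 were also called in flc leaves (16% of the apex genes and 4.62% of the leaf genes), all in the same direction, and 61 of the 75 (81.3%) had the same sign, against 55.4% of all genes. The apex genes that were higher had a median of 1.47 in flc apices and 0.24 in flc leaves, and those that were lower -1.27 in flc apices and -0.65 in flc leaves. COR15A was called in both tissues, with 11.45, 10.31 and 9.79 in LD leaves and 12.34, 12.41 and 12.29 in SD leaves, changes of -1.98 in apices and -1.83 in leaves.

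The difference between the tissues was called for single genes. The response of flc apices differed from that of flc leaves in 96 genes (0.31%), 69 with a positive (0.223%) and 27 with a negative difference (0.0871%), or 234 without the fold threshold (0.755%), and 13 of the 96 were among the 75 genes called in apices. FTM1 measured 3.65, 3.97 and 3.47 in LD leaves and 3.71, 3.73 and 3.72 in SD leaves, against the clear rise in apices, a difference of 2.56 ± 0.32 (adjusted p = 1.35e-05). HCHIB measured 4.55, 4.49 and 4.43 in LD leaves and 4.72, 4.78 and 4.91 in SD leaves, with changes of 1.54 in apices and -0.31 in leaves. PR4, in contrast, had 9.14, 9.73 and 9.43 in LD leaves and 8.27, 9.02 and 6.93 in SD leaves, and the difference of 1.77 ± 0.54 was not called (adjusted p = 0.0748).

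Of the 5 largest differences between the tissues, 4 were those of genes called in leaves and not in apices. XTH18, a xyloglucan-modifying enzyme of the cell wall, measured 6.12, 4.96 and 4.63 in LD apices and 4.51, 4.70 and 5.23 in SD apices, against 4.80, 4.88 and 4.40 in LD leaves and 7.38, 7.77 and 7.31 in SD leaves. The groups overlapped in apices and were apart in leaves, and the difference was 3.22 ± 0.52 (adjusted p = 0.000543). AT1G61890 differed by 2.47 ± 0.27 (adjusted p = 1.52e-06) and AT1G52000 by 2.46 ± 0.54 (adjusted p = 0.00793), with values of -0.13 and 0.27 in apices and falls in leaves, and AT5G62280 by -2.32 ± 0.47 (adjusted p = 0.00434), with -0.22 in apices and a rise in leaves. The call of AT1G52000 was lost whichever of the 12 arrays was left out except SD leaf replicate 2 (adjusted p up to 0.0377), and that of AT5G62280 without LD apex replicates 1 or 2, SD apex replicates 1 or 3, LD leaf replicates 2 or 3 or SD leaf replicate 3 (up to 0.0205). Of the jasmonate, touch and wounding list 13 of 27 genes were called lower in flc leaves, against 0.532% of all genes there. None of the 27 was called in flc apices, which is near the 0.242% of all genes called there. In apices 21 were below 0, against 54% of all genes, and the median was -0.28, against -1.30 in leaves. The difference between tissues was called for 3 of the 27 genes, against 0.31% of all genes. These were LOX3 (1.70, adjusted p = 0.00574), LOX4 (1.68, adjusted p = 0.00271) and OPR3 (1.64, adjusted p = 0.00313), enzymes of jasmonate synthesis. Each of these calls was lost without SD apex replicate 1 or SD leaf replicate 1, that of LOX4 also without LD leaf replicate 2, that of OPR3 also without LD apex replicate 2 or LD leaf replicate 3, and that of LOX3 also without LD apex replicates 1 or 3, SD apex replicates 2 or 3 or LD leaf replicates 2 or 3 (adjusted p up to 0.0116 for LOX4, 0.0129 for OPR3 and 0.0274 for LOX3). JAZ7, a repressor of jasmonate signalling, measured 4.25, 3.73 and 3.66 in LD apices and 4.33, 5.49 and 4.92 in SD apices, against 5.97, 5.38 and 4.49 in LD leaves and 7.35, 8.88 and 8.66 in SD leaves, and its difference of 1.98 was not called (adjusted p = 0.0975). Differences were also called for MAM1, CYP79F1 and BCAT4 of glucosinolate synthesis (1.26, 1.28 and 1.33; without SD apex replicate 1 CYP79F1 at an adjusted p of 0.0108 and BCAT4 at 0.0109 were not called), which were lower in LD leaves than in SD leaves and stood at 0.25, 0.00 and -0.04 in apices.

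**Figure D5:**
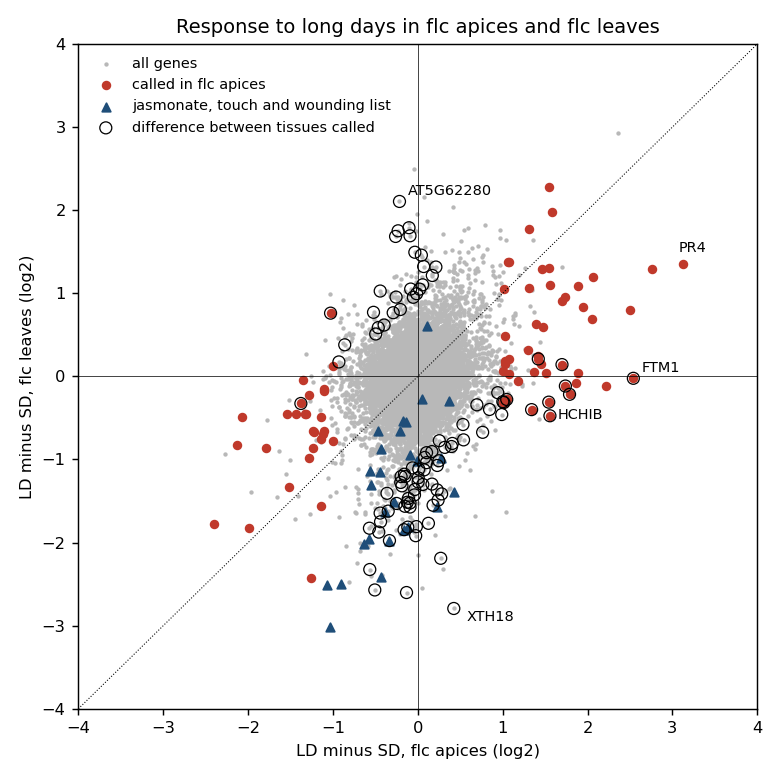
Change after the transfer to LDs (LD minus SD, log2) in flc apices (horizontal axis) and flc leaves (vertical axis) for 31004 genes, with the 75 genes called in apices in red, the 27 genes of the jasmonate, touch and wounding list as blue triangles, and the 96 genes whose responses differed between the tissues circled. FTM1 lies far to the right, close to 0 in leaves, and XTH18 lies near 0 in apices at -2.79 in leaves.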

How the data were processed

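Total RNA of each sample was hybridised to an AGRONOMICS1 array, and the deposited log2 values are those the authors made with RMA, a method of background correction, quantile normalisation and probe summary. The annotation release is not given in the sources used here, so no coordinates are printed; 30484 of 31004 loci matched the reference annotation (98.3%). All 48 arrays were fitted with limma 3.58.1 in R 4.3.3, with 16 group means. Following the study's methods, replicate number entered as a random block (correlation 0.0336). Adjusted p are limma values with Benjamini-Hochberg adjustment across the genes of each of 7 contrasts, in place of Storey q-values. Calls needed a change over 2-fold at an adjusted p under 0.01. The fit was tested on simulated data. Genes and the 13 lists were chosen with earlier results of these data known. Named were the 10 largest rises and falls without overlap, called listed genes, a fixed set of flowering, clock and reference genes, and the 5 largest differences of responses; other genes were named after their values were seen. Arrays give no counts, and their number limits the precision. Alternatives covered the block, the arrays fitted, thresholds, filters, normalisation and single arrays left out.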

Additional observations from a re-analysis of the deposited data

Results flagged for a closer look

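The response to LDs differed between flc apices and flc leaves, by a test of the difference itself, in 96 genes. The largest were XTH18 at 3.22, FTM1 at 2.56, AT1G61890 at 2.47, AT1G52000 at 2.46 and AT5G62280 at -2.32 (apex response minus leaf response, log2, limma adjusted p from 1.52e-06 to 0.00793). FTM1 was called in apices and the other 4 in leaves.

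Of the genes called in flc apices, 12 others had such a difference. It was 2.03 for AT2G18370, 2.00 for AT2G18150, 1.86 for AT4G20390, 1.85 for HCHIB, 1.74 for AT1G78860, 1.56 for GLL22, 1.33 for SDR4, 1.33 for AT1G66760, 1.31 for PMEPCRA and 1.21 for GDH2, all higher in LD apices than in SD apices. It was -1.79 for AT5G59080 and -1.05 for AT1G64370, both lower in LD apices than in SD apices. Of the listed genes that were not called in apices, it was -1.99 for LHCB4.3, 1.70 for LOX3, 1.68 for LOX4, 1.64 for OPR3, 1.33 for BCAT4, 1.28 for CYP79F1, 1.26 for MAM1 and 1.06 for GA2OX2.

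The call was kept whichever of the 12 arrays was left out for XTH18, FTM1, AT1G61890, AT2G18370, AT2G18150, HCHIB, AT1G78860, SDR4, AT5G59080, LHCB4.3 and MAM1. AT1G64370 was lost without LD apex replicate 2, SD apex replicate 1 or SD leaf replicate 2, where its difference fell under 2-fold (at the least -0.98). GDH2 was kept only without SD apex replicate 2 (adjusted p up to 0.0367 otherwise), and AT1G66760 only without LD apex replicate 1 or SD leaf replicate 2 (up to 0.0370). PMEPCRA was lost without LD apex replicates 1 or 2, SD apex replicate 1, LD leaf replicates 2 or 3 or SD leaf replicate 2 (up to 0.0185). AT4G20390 was lost without LD apex replicates 1 or 2, SD apex replicates 1 or 3, LD leaf replicate 2 or SD leaf replicates 2 or 3 (up to 0.0213). GLL22 was lost without LD apex replicate 2, SD apex replicates 1 or 3, LD leaf replicates 1 or 2 or SD leaf replicates 1 or 3 (up to 0.0285). GA2OX2 was lost without LD apex replicates 1 or 2, SD apex replicate 1, LD leaf replicate 1 or SD leaf replicate 2 (0.96 at the lowest).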

How the results depend on the processing

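The number of genes called in flc apices (75) was 40 to 78 when 1 array was left out (higher 25 to 55, lower 12 to 26), lowest without SD replicate 3 (40) and LD replicate 2 (45), and the share higher (62.7%) moved to 78.2% without LD replicate 3, 53.7% without SD replicate 1 and 55.6% without LD replicate 2. It was 114 at an adjusted p under 0.05 (72 higher), 373 with no fold threshold (239 higher, 134 lower), and 0 with the 6 arrays alone (0 higher, 0 lower). Leaving out 1 array gave 57 to 80 genes in wild-type apices, 12 to 38 in flc svp apices, 186 to 324 in flc leaves, 0 to 0 for the difference from wild-type apices, 0 to 1 for that from flc svp apices and 41 to 92 for that from leaves. The counts that moved by over 1.5 times were those without wild-type LD replicate 3 (57) or SD replicate 3 (61), without flc svp LD replicate 3 (12), SD replicate 3 (12) or LD replicate 2 (18), and, for the difference from leaves, without SD apex replicate 1 (41), LD leaf replicate 2 (45), LD apex replicate 2 (58) or LD apex replicate 1 (59). The 1 gene of the difference from flc svp apices appeared without flc svp LD replicate 2. With no fold threshold these counts were 328 in wild-type apices, 98 in flc svp apices, 1279 in flc leaves and 234 for the difference from leaves, and with only the arrays compared 0 in wild-type apices, 0 in flc svp apices, 20 in flc leaves and 10 for the difference from leaves. At an adjusted p under 0.05 they were 52 in flc svp apices, 1 for the difference from wild-type apices and 165 for that from leaves. Leaving out single arrays turned the sign of uncalled genes: SEP3 (-0.207 to 0.092), SPL4 (-0.204 to 0.007), FT (-0.058 to 0.072), SPL3 (-0.042 to 0.102), SPL5 (-0.125 to 0.056), CO (-0.092 to 0.081) and XTH18 (-0.04 to 0.74). GRP7 stood at 0 after quantile normalisation. The cause was not tested.

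Same-numbered arrays of flc apices deviated together only weakly (r = -0.007, 0.09 and 0.062), so the numbers were not taken as pairs. A fixed replicate block gave 96 genes and a fit without the replicate block 65. A fit of only the 24 apex arrays gave 64 genes (36 higher, 28 lower), of which 58 were among the 75. PRE5, RTFL14, AT2G44130, MES1 and JAL23 were among the genes that lost their calls there, so these calls depended on the spread of the leaf arrays. A random replicate block within day length and tissue, added after seeing the data, gave 75 genes, and it or the same block as a fixed term gave 0 for the differences from wild-type and flc svp apices. The 3 arrays per group limit the precision, and 50 of the 75 were lost without at least 1 array.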
